A study of Nicotiana tabacum with 4 samples.

Results

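Wov plants of tobacco, Nicotiana tabacum, carry an allele of the tomato gene Woolly. Among 50705 gene models, 230 were expressed in at least 1 library of wild-type (WT) young leaves and more than 4-fold higher in Wov leaves. They were chosen on the read counts themselves: reads were divided by the library's total and scaled to 1000000 reads (CPM), the larger of the WT values had to be at least 1 CPM, and the smaller of the Wov values had to exceed 4 times that larger WT value. The rule could be met by 38494 models, those with a larger WT value of at least 1 CPM, and the members were 0.597% of them. The fold difference between the genotypes is therefore what selected these genes, and the genotype ratios below describe them and are no evidence for a difference.

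Messenger RNA was measured by RNA-seq in 4 libraries of young primary leaf from mature plants, 2 from Wov transgenic plants and 2 from wild-type plants, with no other treatment or allele given. The promoter that drives Wov, the number of transgenic lines and whether the libraries of a genotype came from separate plants were not given in the labels, so the spread between libraries of a genotype may be partly technical. Library totals ran from 9126074 to 11736154 reads. The models carry only numbered IDs, 0 of the 50705 IDs matched an entry of the RefSeq gene table of assembly ASM71507v2, and the files hold no names for them, so no function, cell type marker or sequence can be attached to a member. Only 2 IDs are printed, and other members are given by their rank on mean Wov CPM and by their length.

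Woolly belongs to class IV of the homeodomain-leucine zipper transcription factors. Factors of this class act in the epidermis, and in tomato Woolly promotes the formation of multicellular trichomes, the hairs that grow from epidermal cells and, in tobacco and its relatives, include glandular types that secrete terpenoids and sugar esters. A whole leaf contains these hairs together with epidermis, mesophyll and veins, and in such bulk tissue a larger number of cells of a type and more RNA per cell cannot be told apart. Tobacco is an allotetraploid, so many genes exist as near-identical copies from both parents, and the labels do not say how reads were shared between such copies.

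The members spanned a wide range of levels in both genotypes. In WT 1 their level ran from 0.0852 to 121.5 CPM with a median of 2.39, and in WT 2 from 0.0900 to 110.9 CPM with a median of 2.34. In Wov 1 they ran from 4.60 to 1720 CPM with a median of 31.2, and in Wov 2 from 4.16 to 2127 CPM with a median of 21.1. Most members were thus low in the wild type: 99 had a mean WT level under 2 CPM, 35 exceeded 10 CPM and 5 exceeded 50 CPM. At least 1 CPM was reached in both WT libraries by 169 of the 230 members, or 73.5%. In Wov, 195 members exceeded a mean of 10 CPM, 47 exceeded 100 CPM and 9 exceeded 500 CPM.

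**Figure D1:**
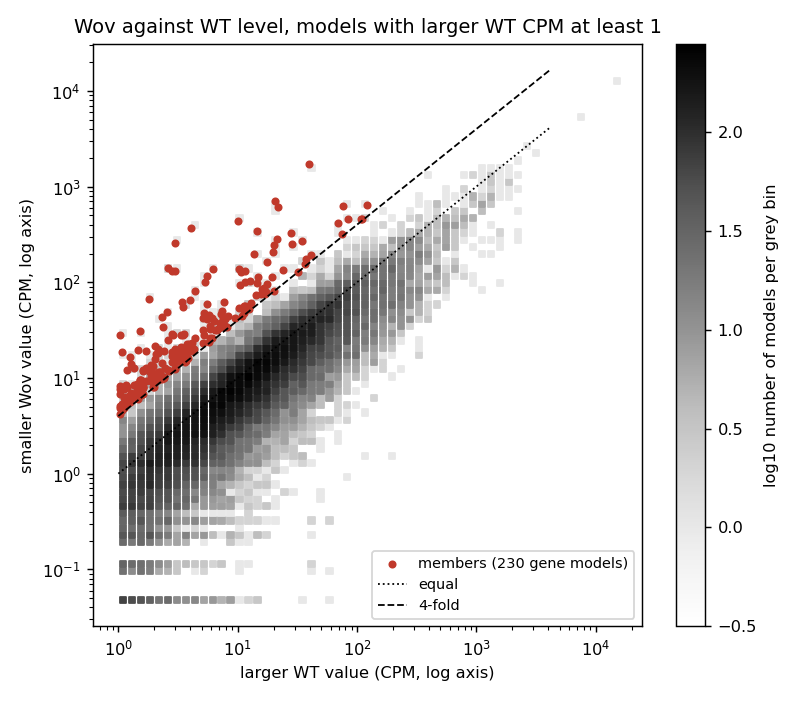
Each red point is 1 of the 230 members, with the larger WT value on the horizontal axis and the smaller Wov value on the vertical axis, both in CPM on log axes. Grey squares are bins of the 38494 models with a larger WT value of at least 1 CPM, darker for more models, with Wov values near 0 drawn at the bottom. The members lie above the dashed 4-fold line by construction, from the lowest WT levels up to a WT value of 121.5 CPM, and thin out toward the right.

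Placed in the order of all 50705 models, the members had a median percentile of 38.2 on mean WT level and of 84.4 on mean Wov level. Of the 230, 159 lay below the median model in the wild type and 6 lay above the 90th percentile there. In Wov, 92 members lay above the 90th percentile. Lists were also made on the length-corrected FPKM scale (reads per 1000 bases of gene model and per 1000000 reads). Of the 100 and 500 models highest in mean Wov level, 6 and 24 were members, or 6.0% and 4.8%. Of the highest 100 or 500 in the wild type, 0 were. Members made up 0.597% of the models that could meet the rule, so 0 in the WT lists is near their share. The 6.0% and 4.8% in the Wov lists are above it. The rule asks for a raised Wov level, so the Wov counts follow in part from the choice.

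The most abundant member in Wov was gene_37943, a model of 974 bases. It had 15698 and 22999 reads in Wov 1 and Wov 2, against 463 and 99 in WT 1 and WT 2. These counts correspond to 1720 and 2127 CPM for Wov and to 39.5 and 8.91 CPM for WT. Both Wov values lay far above both WT values, and the WT libraries differed from each other more than the Wov libraries did. In Wov the mean level was 1924 ± 288 CPM and in WT it was 24.2 ± 21.6 CPM (both SD, n = 2), and the smaller Wov value was 43.6 times the larger WT value (95% counting interval 39.8 to 47.9). Per length it was also the highest member, at a mean of 1975 FPKM in Wov.

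The largest gap between the genotypes belonged to gene_62152, a model of 802 bases. Its reads numbered 3351 and 4690 in Wov 1 and Wov 2 and 48 and 24 in WT 1 and WT 2. Its levels were 367 and 434 CPM in Wov and 4.09 and 2.16 CPM in WT. The libraries of each genotype lay close together beside this gap, and the rule itself keeps the genotypes of every member from overlapping. For Wov the mean was 400 ± 47.0 CPM and for WT it was 3.13 ± 1.36 CPM (both SD, n = 2), with the smaller Wov value 89.8 times the larger WT value (67.6 to 122.0). It ranked eleventh on Wov level but 97th on WT level. Counting intervals here are exact and cover counting error only, not the spread between plants.

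The members that followed it on the size of the gap were a mixed group. The member with the next largest gap, a model of 6216 bases, had 271 and 260 CPM in Wov and 2.98 and 0.270 CPM in WT, the last from 3 reads. The fourth, of 3073 bases, had 560 and 131 CPM in Wov and 0.767 and 2.79 CPM in WT, and its ratio of means, 194, was the highest of all members. The fifth, of 721 bases, had 312 and 130 CPM in Wov and 1.02 and 2.97 CPM in WT. In the fourth and the fifth, Wov 1 was the higher Wov library and WT 2 the higher WT library, while in the second WT 1 was higher.

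**Figure D2:**
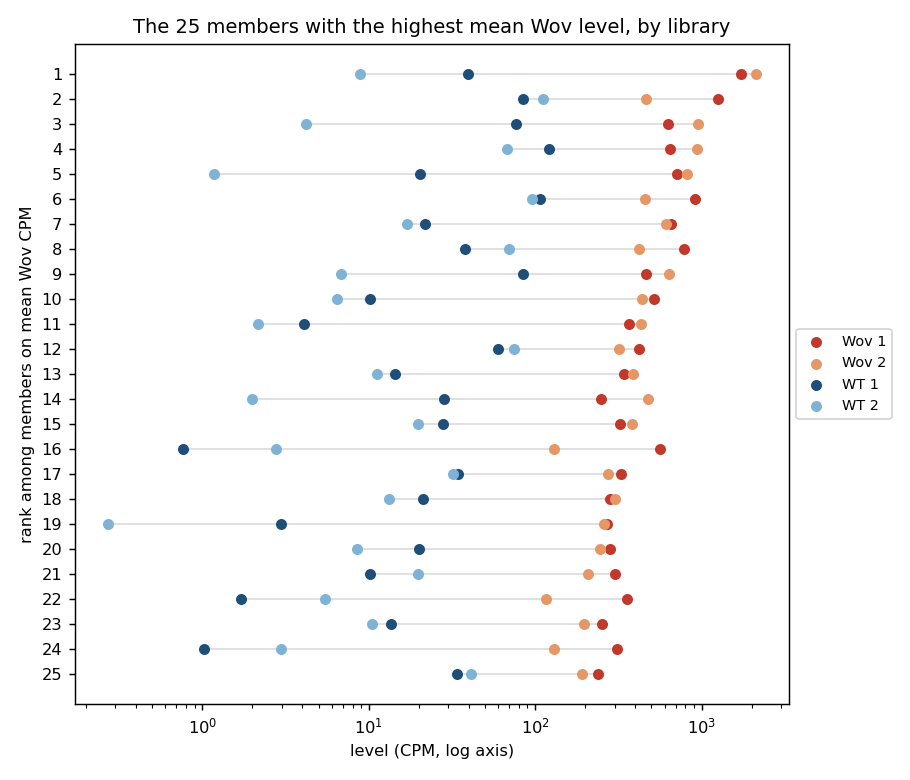
The 25 members with the highest mean Wov level, 1 line each, with the level in CPM on a log axis and a point for each of the 4 libraries. The Wov points (red, orange) stay close together in most lines, whereas the WT points (dark and light blue) are far apart in several, such as ranks 3, 5, 9 and 14, where WT 1 is the higher one.

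The 10 members with the highest Wov levels were of several kinds. Ranks 2, 6 and 8 were well expressed in both WT libraries, and their smaller Wov values were 4.18, 4.27 and 6.04 times the larger WT values. Rank 2, of 1536 bases, stood at 1247 and 463 CPM in Wov and 84.7 and 110.9 CPM in WT. Rank 6, of 2189 bases, stood at 907 and 457 CPM in Wov and 107 and 95.8 CPM in WT, the highest mean WT level of any member. Rank 8, of 1447 bases, stood at 782 and 420 CPM in Wov and 37.9 and 69.5 CPM in WT. In these members Wov 1 was 2.69, 1.98 and 1.86 times Wov 2, and the WT libraries lay within 2-fold of each other.

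Ranks 7 and 10 combined a high Wov level with even libraries and a wide gap. Rank 7, of 3588 bases, had 655 and 608 CPM in Wov and 21.8 and 17.1 CPM in WT, a smaller Wov value 27.9 times the larger WT value (24.6 to 31.7). Rank 10, of 1546 bases, had 521 and 436 CPM in Wov and 10.1 and 6.48 CPM in WT, 43.0 times (35.9 to 52.0). In these members the difference between libraries of one genotype was small beside the gap between genotypes. Rank 4, of 2784 bases, had 642 and 935 CPM in Wov and 122 and 68.2 CPM in WT, a narrower gap of 5.29 times with Wov 2 the higher Wov library.

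Ranks 3, 5 and 9 were uneven in the wild type. Rank 3, of 1298 bases, had 630 and 950 CPM in Wov but 76.3 CPM in WT 1 and 4.23 CPM in WT 2. Rank 5, of 656 bases, had 715 and 817 CPM in Wov, 20.4 CPM in WT 1 and 1.17 CPM in WT 2. Rank 9, of 1849 bases, had 461 and 635 CPM in Wov, 84.0 CPM in WT 1 and 6.84 CPM in WT 2. WT 1 was 18.0, 17.4 and 12.3 times WT 2 in these members, while Wov 2 exceeded Wov 1 by less than 2-fold. With gene_37943, 4 of the 10 most abundant members had WT 1 more than 4-fold above WT 2, as did 11 of the other 220, against 2.77% of all models that could meet the rule. The opposite gap, WT 2 more than 4-fold above WT 1, was found in 0 of the 10 and in 12 of all 230 members, against 1.17%. The fold of such members depends on the WT library used: for rank 3 the smaller Wov value was 8.25 times the larger WT value, but the ratio of the means was 19.6.

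Together the members took 207948 reads in Wov 1 and 203410 in Wov 2, and 19814 in WT 1 and 15628 in WT 2. As a share of the library this was 2.28% for Wov 1, with an exact 95% interval of 2.27 to 2.29, and 1.88% for Wov 2, with 1.87 to 1.89. For WT 1 it was 0.169%, with 0.167 to 0.171, and for WT 2 it was 0.141%, with 0.139 to 0.143. These shares follow from the choice of members, which used the same libraries. With models chosen on the other 3 libraries, the library left out gave 2.53% for Wov 1 (286 models) and 3.09% for Wov 2 (762 models). It gave 0.899% for WT 1 (345 models) and 0.610% for WT 2 (448 models), more than 4 times the shares above. In those choices the other WT library, which was used, held 0.266% and 0.334%. The 762 models held a clearly smaller share of Wov 2, left out, than of Wov 1, which was used. Only 230 of these 762 were more than 4-fold higher in Wov 2 as well. The 286 models held a slightly larger share of Wov 1, left out, than of Wov 2, which was used. The 3.09% thus comes from more models than the 1.88% and does not show a share that rises. The reads were concentrated: the 10 members with the highest Wov level held 36.3% of the members' reads in Wov 1 and 41.7% in Wov 2, and gene_37943 alone held 7.55% and 11.3%. In the WT libraries the same 10 held 35.7% and 27.7% of the members' reads. For comparison, 814 models stood more than 4-fold higher in Wov from a larger WT value under 1 CPM. They took 0.259% and 0.175% of Wov 1 and Wov 2, less than the 230 members, although the members were fewer. The split at 1 CPM in WT helps to set that order, and reads added in models raised by less were not counted. The mirror rule, with WT more than 4-fold above a larger Wov value of at least 1 CPM, found 54 models, with 0.177% of the reads of each WT library.

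**Figure D3:**
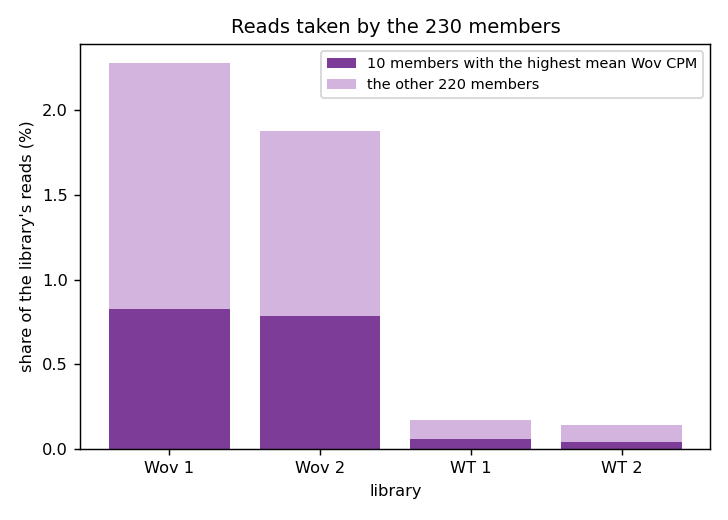
Share of each library's reads, in percent, taken by the 230 members, with the 10 most abundant in Wov (dark) stacked under the other 220 (light). The bars reach 2.28% and 1.88% for Wov and 0.169% and 0.141% for WT, and the members were chosen on these same libraries. The 10 most abundant make up between 27.7% and 41.7% of a bar.

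Taken as the smaller Wov value over the larger WT value, the gap lay not far above the rule's limit of 4 in many members. As a ratio of means it was wider, with a median of 9.065 and quartiles of 6.954 and 15.34. The smaller Wov value was between 4.05 and 89.8 times the larger WT value, with a median of 5.47 and quartiles of 4.67 and 8.04. It exceeded 5 in 149 members, 8 in 58, 16 in 22 and 32 in 9. For 113 of the 230 the exact 95% counting interval of this ratio lay wholly above 4; for the others the depth does not settle on which side of the limit the ratio falls. In 212 members the gap was wider than the difference between the libraries of either genotype. The rule put every gap above 4, so this count largely follows from the choice of members. The lowest counts were in the wild type, where 45 members had fewer than 10 reads in a library. The floor of 1 CPM is more than 10 reads in either WT library, so the rule itself keeps out models under 10 in both.

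Members near the limit looked much like the models that just missed it. Of the 230, 16 had a ratio under 4.2, and 21 non-members had a ratio between 3.8 and 4. The member closest to the limit stood at 212.5 and 129 CPM in Wov and 31.9 and 4.41 CPM in WT, a ratio of 4.05. The model closest on the other side stood at 59.7 and 39.5 CPM in Wov and 9.88 and 9.45 CPM in WT, a ratio of 3.995. The most abundant model that missed the rule by this margin had 1444 and 4193 CPM in Wov, 376 CPM in WT 1 and 13.5 CPM in WT 2, a ratio of 3.84, and its WT libraries were more uneven than those of ranks 3, 5 and 9.

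The share of models that met the rule was smaller at higher WT levels. Among models with a larger WT value from 1 to 2 CPM, 73 of 4375 were members, or 1.67%. The share was 0.933% from 2 to 5 CPM, 0.422% from 5 to 10 CPM, 0.406% from 10 to 20 CPM, 0.198% from 20 to 50 CPM and 0.149% from 50 CPM. The width of the gap did not follow the same order. Its median was between 5.29 and 5.57 in every class except that from 20 to 50 CPM, where the 13 members had a median of 8.76. Across the 230 members the log2 mean WT and Wov levels correlated at r = 0.85, a value that the rule and the shared libraries help to set. The median mean Wov level went from 10.4 CPM in the lowest class to 682 CPM in the highest.

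The rule asked for no difference between the Wov libraries, but it used the smaller of their values. Among the members, Wov 1 was more often the higher library. Wov 1 was above Wov 2 in 159 of 230 members, or 69.1%, against 49.1% of the 38494 models that could meet the rule. The median ratio of Wov 1 to Wov 2 was 1.24 in the members and 0.987 in those models, and it was 0.993 in the 11989 of them whose mean Wov level fell between the members' quartiles. The 814 models raised from under 1 CPM leaned the same way, with a median of 1.26 and 70.1% higher in Wov 1, while the 54 models of the mirror rule had a median of 1.01. More than a 2-fold excess of Wov 1 was found in 38 members, or 16.5%, against a background of 13.0%, and of Wov 2 in 3 members, or 1.30%, against 14.9%. Among the 11989 models of similar Wov level the corresponding backgrounds were 9.05% and 10.2%. Since the smaller Wov value had to clear the limit, models much lower in either Wov library were kept out, which bears on both of these counts. The Wov libraries also did not clear the limit equally often: 762 models qualified without Wov 2 and 286 without Wov 1. The choice thus bears on the 69.1% and the median of 1.24 as well, and on the 814 models, chosen with the same fold limit. The lean was not tested, as libraries within a genotype have no replicates of their own.

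The largest excess of Wov 1 was in a member of 4561 bases with 122.5 CPM in Wov 1 and 21.6 CPM in Wov 2, against 2.05 and 1.53 CPM in WT. The largest excess of Wov 2 was in a member of 2382 bases with 12.5 and 26.3 CPM in Wov and 2.98 and 1.53 CPM in WT. The first is a 5.66-fold and the second a 2.10-fold difference within the genotype, so the tail toward Wov 1 was the longer one.

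The WT libraries were about balanced at the median but widely spread. WT 1 was above WT 2 in 125 of 230 members, and the median ratio of WT 1 to WT 2 was 1.06, with a range from 0.0296 to 20.8. More than a 2-fold excess of WT 1 was seen in 43 members, or 18.7%, against 7.60% of all models that could meet the rule. An excess of WT 2 of that size was seen in 34, or 14.8%, against 7.09%. The rule sets no limit on how far the lower WT library may fall, and many members had few WT reads, so counting error is part of this spread. The most uneven member toward WT 2, of 912 bases, had 1 read in WT 1 and 32 in WT 2, with 779 and 184 reads in Wov 1 and Wov 2. A better counted one, of 2140 bases, had 11 reads in WT 1 and 161 in WT 2, with 1296 and 1065 reads in the Wov libraries. Across members the correlation between WT 1 and WT 2 on log2(CPM + 0.2) was 0.72, against 0.92 over the 38494 models, whereas Wov 1 and Wov 2 correlated at 0.93 against 0.88. Such correlations run across genes and not across independent replicates, and the members were chosen over a narrower range of levels.

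The differences within the genotypes were linked. In 86 members Wov 1 and WT 2 were the higher libraries of their genotypes, and in 52 Wov 2 and WT 1 were. In 73 members Wov 1 and WT 1 were higher, and in 19 Wov 2 and WT 2 were. Among the 38494 models, the first pair of orders took 33.1% and 32.9% and the second 16.0% and 18.0%. Both crossed orders together were the more frequent ones in either set, while Wov 1 with WT 1 took 31.7% of the members. The log2 ratios of Wov 1 to Wov 2 and of WT 1 to WT 2 correlated at -0.39 over the members and -0.49 over the 38494 models. Of the 12 members with WT 2 more than 4-fold above WT 1, Wov 1 was the higher Wov library in 10. Of the 15 with the opposite gap, Wov 2 was higher in 9. Wov 1 was higher in 69.1% of all members. The shares over all models with such WT gaps were not computed, so nothing is read from these small counts. No label names a day or a batch, and the part of such a difference in these values was not tested.

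**Figure D4:**
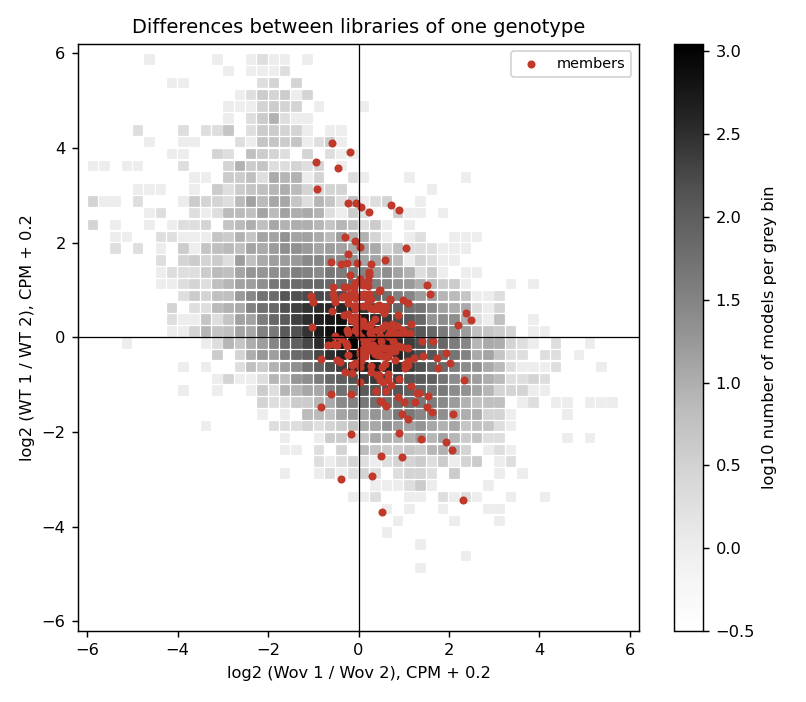
Log2 ratio of Wov 1 to Wov 2 (horizontal) and of WT 1 to WT 2 (vertical), both with 0.2 CPM added, for the 230 members (red) over bins of the 38494 models (grey, darker for more models). The members are shifted to the right of 0, with 159 of 230 on the side of Wov 1, and spread along the vertical axis, while few lie left of -1.

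Because the rule used all 4 libraries, the ratio was also read, for wider sets of models, in libraries that had no part in a choice. Models were chosen on 1 Wov and 1 WT library with the same limits, and the ratio of the remaining Wov to the remaining WT library was recorded. Chosen on Wov 2 over WT 1, 534 models qualified, and in Wov 1 over WT 2 the ratio was above 1 in 98.5%, above 2 in 90.4% and above 4 in 62.9% (95% exact binomial interval 58.7 to 67.0), with a median of 5.33. Over all models with WT 1 of at least 1 CPM, 49.9% were above 1, 13.9% above 2 and 3.42% above 4, and the median was 0.999. Chosen on Wov 1 over WT 2, 905 models qualified, of which 43.2% (39.9 to 46.5) were above 4 in Wov 2 over WT 1, against 2.08%, with a median of 3.51. These intervals treat models as independent, which they are not, and describe counts only.

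Choices along equal library numbers carried over less. Chosen on Wov 1 over WT 1, 1556 models qualified, and in Wov 2 over WT 2 the ratio was above 4 in 15.7% (14.0 to 17.7), against 3.64%, with a median of 1.62. Chosen on Wov 2 over WT 2, 656 models qualified, and in Wov 1 over WT 1 the ratio was above 4 in 35.4% (31.7 to 39.2), against 5.42%, with a median of 1.91. In that last reading the ratios had 2 peaks. Of the 656 models, 58.1% were above 1, against 51.5% of all models with WT 2 of at least 1 CPM. In 92 of the 656, or 14.0%, Wov 1 was more than 4-fold below WT 1, and no share over all models is given beside this. In both crossed readings 1 model was more than 4-fold lower. Of the 230 members, 200 or 199 were among the models chosen in each way, the others having less than 1 CPM in the WT library used. By the rule, these members are above 4 in the left-out libraries too. The readings thus describe the chosen models and are no evidence for the members.

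**Figure D5:**
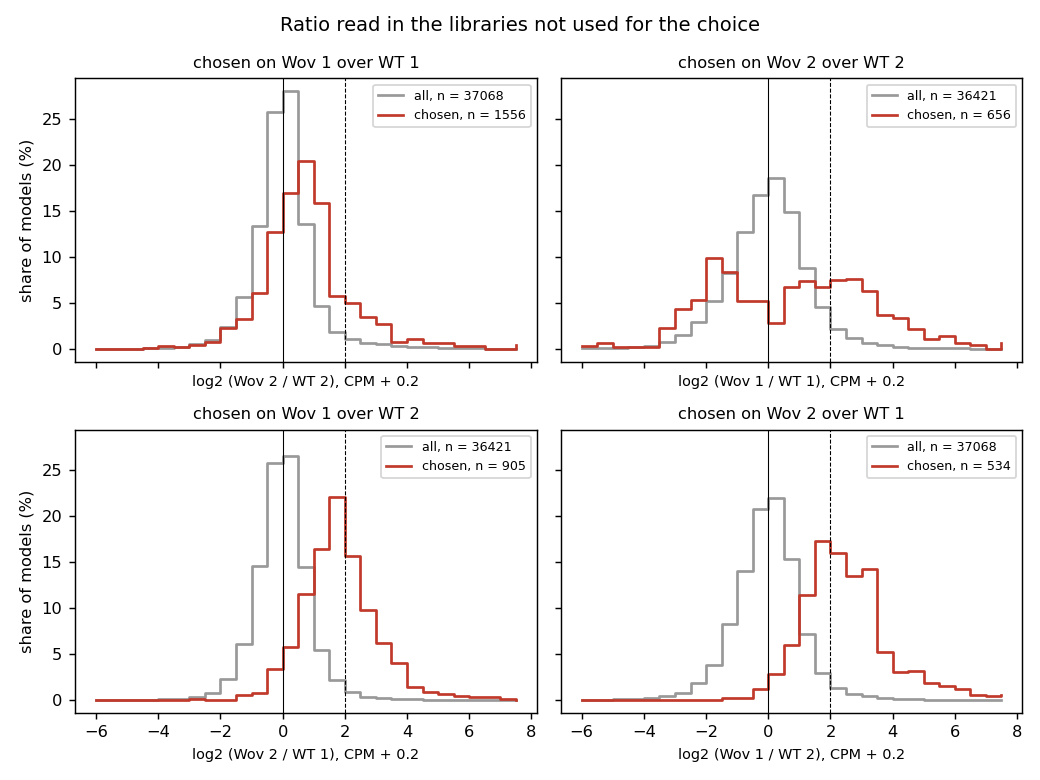
Share of models, in percent, by log2 ratio (0.2 CPM added, bins of 0.5) in the Wov and WT libraries left out of the choice, for models chosen on the other Wov and WT library (red) and all models with at least 1 CPM in that WT library (grey), with lines at 0 and at 4-fold. The red curves of the lower panels, chosen on Wov 1 over WT 2 and on Wov 2 over WT 1, lie almost wholly right of 0, that chosen on Wov 1 over WT 1 is only slightly shifted, and that chosen on Wov 2 over WT 2 has 2 peaks, 1 on each side of 0.

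A fit across all models gave each member's fold change a standard error. The fit was edgeR's quasi-likelihood test, adjusted by the Benjamini-Hochberg method over 38981 models, and all 230 members passed the default filter on low counts, which the rule nearly ensures. Their log2 fold changes of Wov over WT ran from 2.20 to 7.55 with a median of 3.12, beside -0.01 over all models, and their standard errors from 0.32 to 1.34. At an adjusted p under 0.05, 0 of 230 members were called, against a background of 0.0% of all models higher in Wov, and the members' adjusted p ran from 0.0771 to 0.266. All 230 had an unadjusted p under 0.05, against 8.04%, and 68 an adjusted p under 0.1, against 0.308%. DESeq2's Wald test called 226 members at an adjusted p under 0.05, against 2.32%, and the edgeR exact test 228, against 2.89%. Without a count filter edgeR called 81 members, against 0.295% of all models, and limma called 46 on log2(FPKM + 1), against 0.264%, and 10 with 0.1 added, against 0.0492%. The single libraries mattered: 82 members were called without Wov 1, against 0.377%, 194 without Wov 2, against 3.14%, and 0 without WT 1 or WT 2, against 0.0% and 0.00247%. A block that pairs Wov 1 with WT 2 and Wov 2 with WT 1, added after the data were seen, called 223, against 7.43%. The rule used this contrast, so nothing is read from these counts. With 2 libraries per genotype an exact permutation test cannot give a two-sided p below 0.333.

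Members with uneven libraries in either genotype had larger standard errors than the even ones named here. For gene_62152 the log2 fold change was 6.94 (SE 0.59), and its adjusted p in that edgeR fit was 0.0771. For gene_37943 it was 6.26 (SE 0.92), and its adjusted p in edgeR was 0.105. For rank 5 it was 6.09 with an SE of 1.33, and for rank 3 it was 4.23 with an SE of 1.29. The member of 4561 bases with 122.5 and 21.6 CPM in Wov but 2.05 and 1.53 CPM in WT had an SE of 0.93. Rank 7, with even libraries, had a log2 fold change of 4.97 with an SE of 0.48.

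The lengths of the members, taken from the ratio of the deposited counts to FPKM, ran from 447 to 13459 bases. Their median was 1820 bases (quartiles 1107 and 2633), against 2274 bases (1376 and 3854) over the 38494 models that could meet the rule and 2266 bases over the 12496 of them whose mean WT level fell between the members' quartiles. Models under 1000 bases made up 20.9% of the members and 13.6% of those models, and models over 4000 bases 10.9% and 23.6%. The 814 models raised from under 1 CPM had a median length of 1578 bases and the 54 of the mirror rule 1608 bases, so shorter models were not particular to the members. These lengths are descriptions without a test. The labels do not say whether these lengths are spliced or unspliced.

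Some members had neighbouring ID numbers. In all, 5 pairs of members lay within 3 numbers of each other, and 2 of those were consecutive. Counted from both partners, members were 1.49%, 1.75% and 0.939% of the members' neighbours 1, 2 and 3 numbers away. These shares rest on 4, 4 and 2 neighbours. For neighbours of all models that could meet the rule, the shares were 0.558%, 0.536% and 0.537%. Neighbours were counted if their larger WT value was at least 1 CPM. In the first consecutive pair, the models of 9186 and 928 bases had 78.7 and 56.6 CPM, and 53.5 and 32.6 CPM, in Wov 1 and Wov 2. In WT 1 and WT 2 they had 4.35 and 11.3 CPM, and 2.81 and 5.85 CPM. In the second pair, of 2798 and 1052 bases, the Wov levels were 75.8 and 41.4 CPM, and 64.0 and 31.8 CPM, and the WT levels 3.15 and 7.83 CPM, and 2.39 and 6.48 CPM. Both partners of each consecutive pair had the same order of libraries, with Wov 1 above Wov 2 and WT 2 above WT 1.

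Neighbours of members were raised about as often as neighbours of other models. Of 269 neighbours 1 number away with a larger WT value of at least 1 CPM, 25, or 9.29%, were more than 2-fold higher in Wov by mean CPM, against 9.13% of the neighbours of all such models, and 4, or 1.49%, were members themselves, against 0.558%. The labels do not say what the numbering stands for or whether neighbours share reads.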

How the data were processed

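The authors deposited 1 table of read counts and 1 table of FPKM, per the file headers with 1 column for each of 4 libraries. TopHat is named in the submitters' processing notes; for the counting program, genome build, gene models and strand setting, nothing is given in the sources used here. Each deposited FPKM value equalled the count divided by a length and the library total, so both tables are 1 measurement. Members, lists and comparisons were chosen with earlier results of these data known. The 2 printed IDs are the member highest in mean Wov CPM and that with the largest gap; the rule for naming allows no more where IDs have no names. Counts were tested with edgeR 4.0.16 under R 4.3.3 (default count filter, TMM scaling, robust quasi-likelihood test, no covariate, all 4 libraries), a procedure tested on simulated data. The simulated counts were drawn independently for each library, so that trial does not cover the linked differences within genotypes. DESeq2 1.42.0, limma 3.58.1 on FPKM after log2 with 1 or 0.1 added, other scalings, filters and limits, and each library left out were the alternatives. Standard errors are the log2 fold change over the square root of F. Intervals are exact at 95% (SciPy 1.17.1). Ratios of CPM used no pseudocount. Totals of 9126074 to 11736154 reads make 1 CPM about 10 reads.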

Additional observations from a re-analysis of the deposited data

How the results depend on the processing

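The number of members followed the limits of the rule and the libraries. It was 1139, 401, 96 and 58 at fold limits of 2, 3, 6 and 8, and 81 with a WT floor of 5 CPM, against 230. Counting only members whose interval lay wholly above 4, chosen after seeing the data, left 113. It stayed within 1.5 times with a WT floor of 0.5 or 2 CPM (321 and 157), TMM scaling (226, of which 220 shared), DESeq2 size factors (220), libraries thinned to the smallest total (224, of which 209 shared) and the rule on FPKM (165). Leaving out 1 library gave 286 to 762 models: 286 without Wov 1, 762 without Wov 2, 345 without WT 1 and 448 without WT 2. Fewer libraries then have to clear the limit. Without a WT library the floor of 1 CPM falls on the one left, and 199 members stayed without WT 1 and 200 without WT 2. Members called at an adjusted p under 0.05 numbered 0 in edgeR's quasi-likelihood test and with its other scalings, but 226 in DESeq2, 228 in the exact test of edgeR and 81 when no count filter was set. Limma called 46 with 1 added to FPKM and 10 with 0.1 added, where 229 of 230 passed its filter. Without 1 library at a time, 0 to 194 were called: 82 without Wov 1, 194 without Wov 2, and 0 without either WT library, where the single library left is taken to vary as the other genotype does. The cause was not tested. With the replicate block, 0 members were called; same-numbered libraries deviated from their genotype means with a correlation of -0.49 over models, which does not pair them. The crossed pairing as a block, added after seeing the data and supported by no label, called 223 members. The direction of all fitted members was higher in Wov in each of these fits, which the choice of members ensures. The median ratio of Wov 1 to Wov 2 was 1.24 to 1.26 under the other scaling and after thinning. Read in a library left out of the choice, the share of reads was 2.53% for Wov 1, 3.09% for Wov 2, 0.899% for WT 1 and 0.610% for WT 2, against 2.28%, 1.88%, 0.169% and 0.141%. The left-out shares belong to the larger sets of 286 to 762 models and not to the 230 members. For the 762 models the share was clearly smaller in Wov 2, left out, than in Wov 1, which was used.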
